A study of Eutrema salsugineum with 2 samples.

Results

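This account covers 100 annotated genes of Eutrema salsugineum that had at least 6 reads in the library of the Shandong accession (SH) and none in the library of the Yukon accession (YK), out of 17888 genes in the deposited read table. They were chosen by those reads: of 9025 annotated genes with at least 6 SH reads, 108 had no YK read, a share of 1.20% (95% exact binomial interval 0.983 to 1.44%). Of the 108, 8 were left out because they lie in stretches on scaffold 8 (from 1805409 to 1898471) and scaffold 15 (from 4834225 to 4874238), or because they are Thhalv10015551m.g. The reads of the 100 genes are therefore a description, and no test was made of them.

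E. salsugineum is a salt-tolerant relative of Arabidopsis thaliana. The SH accession comes from Shandong and is labelled as having less rosette biomass, thicker leaves and less drought tolerance, and the YK accession comes from the Yukon and is labelled with more biomass, thinner leaves and more drought tolerance. Plants of both accessions were well watered and had days of 12 h, with 22 °C by day and 20 °C by night, and whole rosettes were taken at an age of 4 weeks in the middle of the night. There was 1 library for each accession, made from pooled plants (the sources give either 1 pool of 5 plants or 4 pools of 5), so no difference given here has a replicate check, and every interval and floor covers counting error only. In whole rosettes, fewer cells of a type and less RNA per cell cannot be told apart. The libraries held 482275 reads on genes in SH and 431705 in YK, both aligned to the SH genome. For a gene with no YK read, the count of 0 allows up to 3 reads, or 6.95 reads per 1000000 reads on genes (RPM) in the YK library. None of the 33 A. thaliana marker genes listed for rosettes, flowers and pollen, seeds and roots could be found by the names at hand, so the labelled tissue was not checked.

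Presence-absence variation is the name for genes that some members of a species carry and others lack, and the term is also used for transcripts seen in some accessions only. Read numbers cannot tell a missing gene from a silent gene, or from a gene whose YK reads did not align uniquely to the SH sequence. Genes of this kind are known in plants to include many of low expression, many that belong to fast-changing families and many without a named relative.

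For 4 of the most abundant SH-only genes the study designed primers for quantitative RT-PCR, and these are the only sequences of the set at hand. They are shown because they are stretches of the genes with the most SH reads in the set, and the outcome of that assay is not used here. Each is written 5′ to 3′, with the last 5 bases, from which the polymerase extends, in capitals.
Thhalv10022943m.g forward: tttgatcggattttcttcggTATAT
Thhalv10022943m.g reverse: aattctgatggaaacagattaAACGA
Thhalv10002969m.g forward: cgtacgtttctttcgcttATTGG
Thhalv10002969m.g reverse: tggccacagcatgagATCAG
Thhalv10009345m.g forward: cacttcttctccaaattctcGATCT
Thhalv10009345m.g reverse: gcatcgggtcggagAAATC
Thhalv10014264m.g forward: gcaccggaagaagttgGAGAT
Thhalv10014264m.g reverse: ctgcccaaagctcttgATCAT
The 8 primers were 19 to 26 bases long. The reverse primer of Thhalv10022943m.g had the lowest content of G and C, 30.8%, while the reverse primer of Thhalv10009345m.g had the highest content of the 8, 57.9%.

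Thhalv10022943m.g stood apart from the other 99 genes. It had 148 reads in SH, or 307 RPM (95% exact Poisson interval 259 to 360 RPM), and no read in YK, which put it at least 49.3-fold higher in SH. This and all further folds divide the SH reads by the floor of 3 reads, with equal scaling of the libraries, and leave out the counting error of the SH reads. The words "at least" thus cover the YK count only, and for genes with few SH reads the true fold may be lower. The gene has no match in A. thaliana, A. lyrata or Schrenkiella parvula among the names at hand. It lies on scaffold 11 from 11310926 to 11311783, beyond every other detected annotated gene on that scaffold, and is 858 bp long. Per kilobase of locus (introns included) it had 358 RPM in SH, the highest of the 100 genes.

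A further 3 genes had more than 50 SH reads. Thhalv10002969m.g, whose A. thaliana hit EDA32 (AT3G62210) is named after an arrest in the development of the embryo sac, had 61 SH reads (126 RPM, interval 96.8 to 162) without any YK read, at least 20.3-fold higher in SH. It lies on scaffold 4 from 6652387 to 6653459, and the nearest detected annotated gene is 440344 bp away. Thhalv10009345m.g, on scaffold 5 from 7217478 to 7219062, with no match in the 3 related species, had 58 SH reads (120 RPM, interval 91.3 to 155) without any YK read, at least 19.3-fold higher in SH. Thhalv10014264m.g had 53 SH reads (110 RPM, interval 82.3 to 144) without any YK read, at least 17.7-fold higher in SH. Its hit AT4G01560 encodes a Brix domain protein, a family that acts in the processing of ribosomal RNA, and it lies on scaffold 2 from 11119212 to 11121205. These 3 genes and Thhalv10022943m.g held 24.6% of the 1303 SH reads of the whole set.

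The next 5 genes had between 28 and 34 SH reads, and none of them has a described function among the names at hand. Thhalv10017986m.g, on scaffold 10 from 7168410 to 7168843, had 34 SH reads without any YK read, at least 11.3-fold higher in SH. At 434 bp it is among the shortest loci of the set, and its 162 RPM per kilobase of locus in SH were the second highest level of the 100. Thhalv10002119m.g (scaffold 12, 1038061 to 1039316, hit AT1G24148) and Thhalv10021355m.g (scaffold 13, 3108072 to 3109711) had 32 SH reads each without any YK read, at least 10.7-fold higher in SH. Thhalv10022908m.g, on scaffold 11 from 3601150 to 3602127, had 30 SH reads without any YK read, at least 10-fold higher in SH, and its only match is in A. lyrata. Thhalv10014457m.g, on scaffold 2 from 8516168 to 8517507, had 28 SH reads without any YK read, at least 9.33-fold higher in SH.

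Below these 9 genes the reads dropped to 18 and lower. There were 33 genes with 10 to 19 SH reads and 58 with 6 to 9, so that the median of the set was 8 SH reads (at least 2.67-fold higher in SH), against 16 for the 8917 other annotated genes with at least 6 SH reads. All 100 genes together held 0.270% of the SH library. At the threshold itself, 28 of the genes had exactly 6 SH reads. With all 6 reads from SH, the lower 95% bound of the SH share of reads is 54.1%, so that little separates such a gene from an equal split. Just outside the threshold, 52 annotated genes had 5 SH reads and no YK read, and 113 had at least 6 SH reads and 1 YK read. The 113 genes had a median of 7 SH reads and a maximum of 74, and 6 of them had at least 20.

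**Figure D1:**
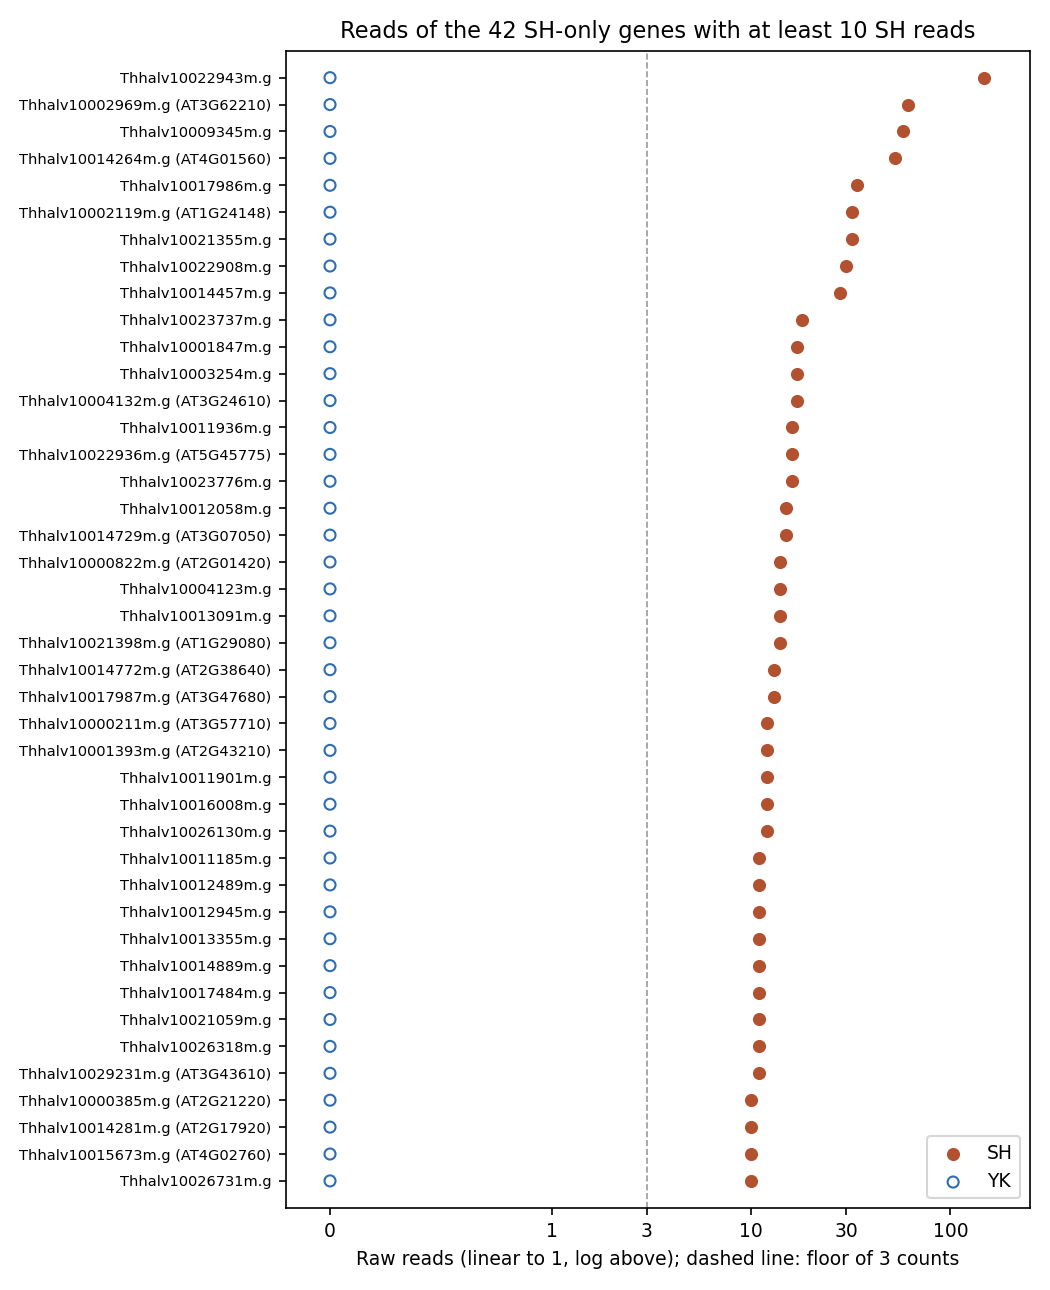
Raw reads of the 42 SH-only genes with at least 10 SH reads, with SH as filled points and YK as open points (1 library each, no error bars); the x axis is linear to 1 and logarithmic above, the A. thaliana hit stands in brackets where one is at hand, and the dashed line is the floor of 3 counts. Thhalv10022943m.g with 148 SH reads lies apart, 8 further genes lie between 28 and 61, and all YK counts are 0 by the choice of genes.

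The same rule with the libraries exchanged gave a set of similar size. Reads were found only in YK, at a minimum of 6 and with no gene left out, for 94 of 9163 annotated genes, or 1.03% (interval 0.830 to 1.25%). The highest count was 148 reads in the SH-only set, against 83 in the YK-only set, and the medians were 8 and 7. At least 10 reads were held by 42 genes of the SH-only set, against 30 of the YK-only set, and at least 20 reads by 9 and 10. These values are not like for like, because the 8 left-out genes are missing from the SH side only. Among them are Thhalv10000285m.g with 179 SH reads and Thhalv10023491m.g with 47. The SH maximum and the SH numbers at 10 and 20 reads are therefore too low for this comparison, and the order at 20 reads rests on the omission. The order of the set sizes rested on which library was scaled. With SH reads scaled down to the YK total, 72 SH-only genes had at least 6, against the 94 YK-only genes. The fall to 72 is the loss of the 28 genes with exactly 6 SH reads, which lie at the threshold. With YK reads scaled up to the SH total instead, the YK-only set stayed at 94, against 100 SH-only genes, so the order was kept.

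A lack of reads in the other library was rarer among genes with at least 20 reads, in either direction. Counting error alone makes a count of 0 rarer as reads rise, and how much of the fall it makes up was not tested. Among annotated genes with 6 to 9 SH reads, 2.40% had no YK read (interval 1.83 to 3.08%), and among those with 6 to 9 YK reads, 2.59% had no SH read (interval 2.00 to 3.30%). At 10 to 19 reads the shares were 1.39% of SH-detected genes (interval 0.983 to 1.90%) and 0.700% of YK-detected genes (interval 0.428 to 1.08%), and these intervals overlap. At 20 to 49 reads they were 0.266% of SH-detected genes and 0.389% of YK-detected genes. Of the 749 annotated genes with at least 100 SH reads, 2 had none in YK: Thhalv10022943m.g and a gene of the scaffold 15 stretch. Of the 707 with at least 100 YK reads, every gene had SH reads.

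**Figure D2:**
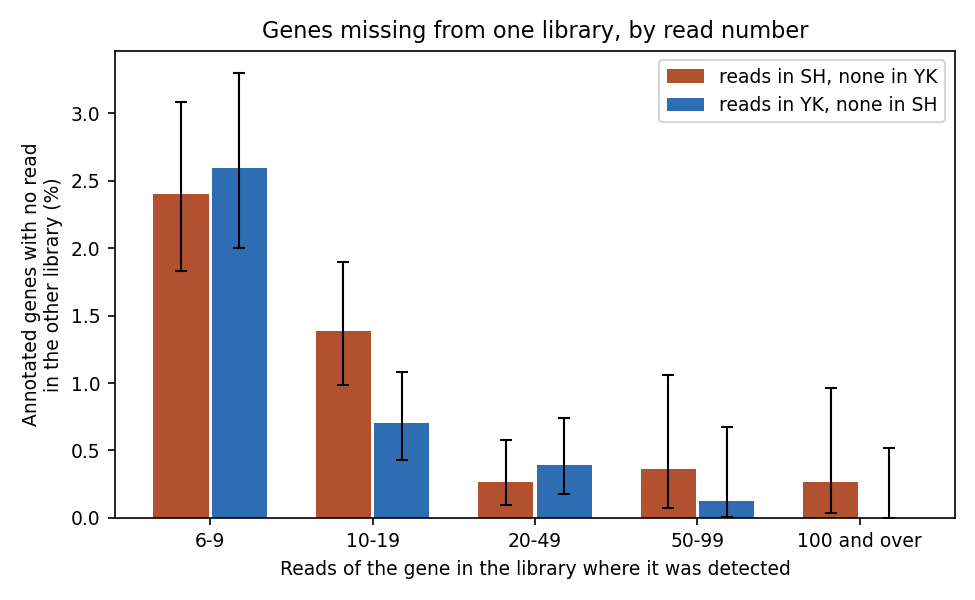
Share of annotated genes with no read in the other library (y axis, %), by the reads of the gene in the library where it was detected (x axis), for SH-detected genes (left bars) and YK-detected genes (right bars); the error bars are 95% exact binomial intervals, and the 8 left-out genes are counted. The shares were highest at 6 to 9 reads, 2.40% for SH and 2.59% for YK, and at most 0.389% from 20 reads on, and the intervals of the 2 directions overlap in every class.

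Names were at hand for a part of the set only. Of the 100 genes, 38 stand in the part of the study's annotation that could be used, and 29 of these have an A. thaliana hit. The other 9 have none, and 8 of the 9 have no match in A. lyrata or S. parvula either. The genes without an A. thaliana hit were short, with a median locus of 858 bp and a range of 369 to 1585 bp, against a median of 1805 bp for the 29 genes with a hit. Their median was 17 SH reads, against 10 for the genes with a hit. Besides Thhalv10022943m.g, Thhalv10009345m.g, Thhalv10017986m.g and Thhalv10022908m.g they are Thhalv10001847m.g with 17 SH reads, Thhalv10011936m.g with 16, Thhalv10012058m.g with 15, Thhalv10017484m.g with 11 and Thhalv10023773m.g with 8. The named part is not a random sample of the set, so these counts describe these genes only.

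The genes with a hit are given by the role of the hit, which orders the account and is no sign that any role is more common here than among other genes. Thhalv10022936m.g, on scaffold 11 from 11090802 to 11092357, whose hit AT5G45775 encodes a cytosolic ribosomal protein of the L11 family, had 16 SH reads without any YK read, at least 5.33-fold higher in SH. Another gene of that family, Thhalv10001041m.g with the hit AT2G42740, was well detected on both sides, at 82 SH reads and 89 YK reads. Thhalv10014729m.g, on scaffold 2 from 3813387 to 3815242, had 15 SH reads without any YK read, at least 5-fold higher in SH. Its hit AT3G07050 is the nucleostemin-like GTPase NSN1, which acts in ribosome assembly. Thhalv10014705m.g, on scaffold 2 from 11235051 to 11236194, with a hit to a gene of the translation initiation factor 3 gamma subunit family (AT2G45730), had 6 SH reads without any YK read.

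The auxin-related hits were to a transporter and a response gene. PIN4 (Thhalv10000822m.g, scaffold 20, 2614874 to 2618107, hit AT2G01420), an efflux carrier that moves auxin out of cells, had 14 SH reads without any YK read, at least 4.67-fold higher in SH. None of the other PIN genes of A. thaliana could be found by the names at hand. Thhalv10000385m.g, on scaffold 15 from 100536 to 101190, whose hit AT2G21220 belongs to the SAUR family of small auxin-responsive genes, had 10 SH reads without any YK read, at least 3.33-fold higher in SH.

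The hits tied to stress and defense follow. Thhalv10014772m.g, at the start of scaffold 2 (16453 to 17353), with a hit to a LURP-one family gene (AT2G38640), had 13 SH reads without any YK read, at least 4.33-fold higher in SH. Thhalv10002698m.g, on scaffold 4 from 8854873 to 8855408, had 9 SH reads without any YK read. Its hit AT1G53540 encodes a class I small heat shock protein, a chaperone that holds unfolding proteins in a soluble state. NHL10 (Thhalv10017726m.g, scaffold 10, 8448909 to 8449592), a membrane protein gene known in A. thaliana from defense and leaf senescence, had 7 SH reads without any YK read. The bounds were at least 3-fold higher in SH for the small heat shock gene and at least 2.33-fold higher for NHL10. With the counting error of so few reads, the lower 95% bounds of the SH share of reads were 66.4% and 59.0%.

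Hits to protein turnover and signalling genes were those of Thhalv10021398m.g, on scaffold 13 from 3112982 to 3116622, whose hit AT1G29080 encodes a papain-type cysteine protease, and of a pair of genes with repeat domains used in protein binding and a kinase gene. The protease gene had 14 SH reads without any YK read, at least 4.67-fold higher in SH. Thhalv10004132m.g, on scaffold 6 from 4575847 to 4577651, with a hit to a kelch repeat gene (AT3G24610), had 17 SH reads without any YK read, at least 5.67-fold higher in SH. Thhalv10015673m.g, on scaffold 2 from 11105811 to 11108019, with a hit to a gene of the RNI-like, leucine-rich repeat superfamily (AT4G02760), had 10 SH reads without any YK read. The kinase gene Thhalv10000211m.g, on scaffold 15 from 5339814 to 5341060 with the hit AT3G57710, was counted at 12 reads in SH, at least 4-fold higher in SH.

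A pair of hits were to genes of cell division and meiosis. Thhalv10029231m.g, on scaffold 3 from 4903804 to 4904304, had 11 SH reads without any YK read, at least 3.67-fold higher in SH. Its hit AT3G43610 belongs to the Spc97 and Spc98 family, whose members nucleate microtubules in the gamma-tubulin complex. ASY2 (Thhalv10023163m.g, scaffold 11, 2237904 to 2238805, hit AT4G32200), a relative of the meiotic chromosome axis protein ASY1, had 7 SH reads without any YK read, at least 2.33-fold higher in SH.

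A further 4 genes, with hits tied to transport, membranes or organelles, had 7 SH reads each and none in YK, as NHL10 had, at least 2.33-fold higher in SH. They were Thhalv10018035m.g, with a hit to a nitrate and peptide transporter family gene (AT1G72125), and Thhalv10022979m.g, with a hit to a Band 7 domain gene (AT2G03510). The others were TOM7-2 (Thhalv10023788m.g), a small subunit of the protein import pore in the outer mitochondrial membrane, and Thhalv10023484m.g. The hit of Thhalv10023484m.g, AT3G54250, encodes a mevalonate diphosphate decarboxylase, which makes the isoprenoid precursor isopentenyl diphosphate. The other listed A. thaliana genes of the TOM7, decarboxylase, ASY and class I small heat shock families were not found by the names at hand.

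A pair of hits are given here as genes of DNA or RNA binding proteins, which is no full count of that role. Thhalv10000279m.g, on scaffold 15 from 3762778 to 3765554, with a hit to a B3 domain transcription factor gene of the REM group (AT2G24650), had 8 SH reads without any YK read, at least 2.67-fold higher in SH. Thhalv10002476m.g, on scaffold 4 from 3309702 to 3312093, with a hit to a CCCH zinc finger gene with an RNA-binding domain (AT2G05160), had 6 SH reads without any YK read. The remaining genes with a hit ranged from 6 to 13 SH reads and are given without a role: Thhalv10017987m.g (AT3G47680) with 13, Thhalv10001393m.g (AT2G43210) with 12, Thhalv10014281m.g (AT2G17920) with 10, Thhalv10000642m.g (AT2G22340) with 9, and Thhalv10026540m.g (AT4G19630) and Thhalv10000783m.g (AT5G47400) with 6 each.

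For 4 of the SH-only genes another detected gene has the same A. thaliana hit, and in each case that gene had reads in both libraries. The second copy of NSN1, Thhalv10002456m.g on scaffold 4, had 4 SH reads and 4 YK reads, where Thhalv10014729m.g had 15 and 0. The second gene with the hit AT3G43610, Thhalv10002374m.g, had 3 SH reads and 7 YK reads, where Thhalv10029231m.g had 11 and 0. The SH-only copy is the shorter of this pair, with a locus of 501 bp against 6058 bp. Thhalv10001448m.g, the second gene with the hit AT2G45730, had 10 SH reads and 6 YK reads and is 2778 bp long, against 1144 bp for the SH-only Thhalv10014705m.g. The second REM gene, Thhalv10000097m.g, had 1 read in each library. Only uniquely mapped reads were counted, so the split of reads between near-identical copies is uncertain, and the names at hand cover a part of the table, so other copies were not analysed here.

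The SH-only genes had shorter loci than other genes. Their median length, introns included, was 1840 bp (range 245 to 9713 bp), against 2243 bp for the 8917 other annotated genes with at least 6 SH reads. Loci of at most 1000 bp made up 24% of the SH-only genes, against 7.86% of the others. The gap was present at matched read numbers. Among genes with at least 20 SH reads the medians were 1256 bp for the SH-only genes, against 2037 bp for the others, at 10 to 19 reads 1725 bp against 2393 bp, and at 6 to 9 reads 2154 bp against 2454 bp. The 94 YK-only genes had a median of 2274 bp. These are descriptions of loci as annotated, and the share of each locus that is exonic is not given in the files.

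**Figure D3:**
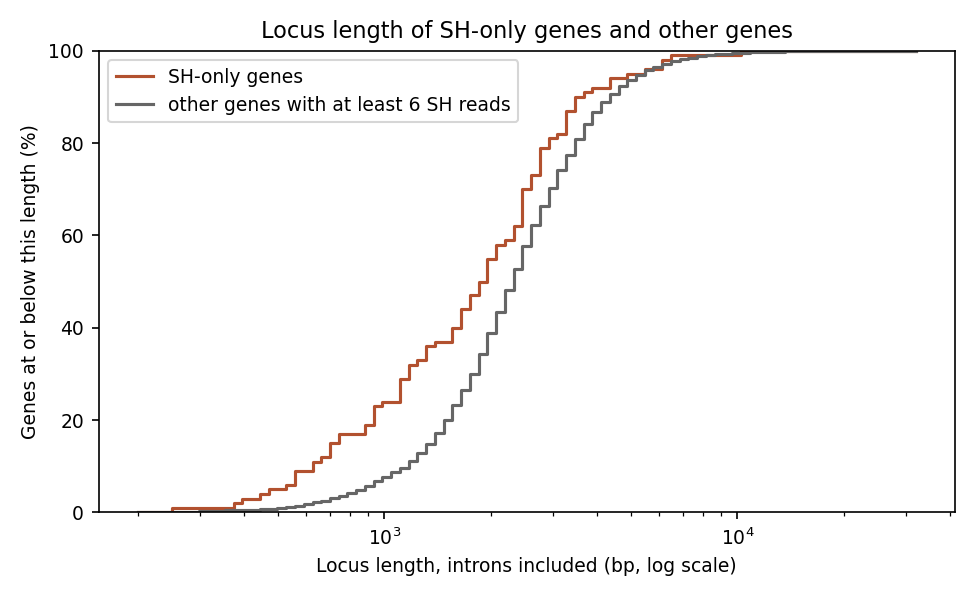
Cumulative share of genes (y axis, %) by locus length in bp with introns included (x axis, logarithmic), for the 100 SH-only genes and for the 8917 other annotated genes with at least 6 SH reads. The quartiles lie at 1052.5, 1840 and 2627 bp for the SH-only genes, against 1605, 2243 and 3129 bp for the others, with 24% of them at or below 1000 bp, against 7.86% of the other genes.

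Per kilobase of locus, the SH-only genes ranged from 0.618 to 172 SH reads with a median of 5.16, against a median of 7.49 for the other annotated genes with at least 6 SH reads. The lowest level was that of Thhalv10028371m.g, whose 6 reads came from the longest locus of the set. A pair of SH-only genes overlapped another annotated gene on the scaffold. Thhalv10014437m.g had 9 SH reads without any YK read and shared 563 bp with Thhalv10014834m.g, which had 45 SH reads and 44 YK reads. Thhalv10011553m.g had 6 SH reads without any YK read and shared 1378 bp with Thhalv10011571m.g, which had 26 in SH and 21 in YK. Reads in the shared stretch fit both genes and are not counted for either in union mode, and the library did not keep the strand.

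Members of the set were spread over 21 scaffolds. Scaffold 2 held the most, 18 of its 1196 annotated genes with at least 6 SH reads, or 1.51%. The share was 0.450% on scaffold 5, with 5 of 1112 genes, and 2.63% on scaffold 11, with 5 of 190. Scaffold 15 had 4 of 162, scaffold 8 had 5 of 230, scaffold 7 had 7 of 331 and the small scaffold 23 had 1 of 17, so these shares rest on few genes. The denominators include the left-out genes, and with these counted as SH-only the numbers were 6 of 162 on scaffold 15 (3.70%) and 10 of 230 on scaffold 8 (4.35%).

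The nearest detected annotated genes on each side comprised 189 genes outside the set, and 170 of them had SH reads and 169 had YK reads. They had a median of 6 reads in SH and 5 in YK, and summed to 4638 reads in SH and 4349 in YK. More reads came from SH at 96 of them and from YK at 83. Of the 99 SH-only genes with a detected gene on each side, 76 (76.8%) had YK reads at both neighbours, against 83.6% of the other genes with at least 6 SH reads. No YK read at either neighbour was found for 4 (4.04%), against 0.901% of the others. Both gaps come in part from the choice of genes. In the whole set, 7 genes stand next to another SH-only gene, which lacks YK reads by the rule. Of the 4, Thhalv10015673m.g stood between SH-only genes. Neighbours of the others, Thhalv10017986m.g, Thhalv10017726m.g and Thhalv10022979m.g, had only 1 to 3 SH reads. The share with YK reads at both neighbours was 81.0% for the SH-only genes with 6 to 9 SH reads and 75.8% for those with 10 to 19. Of the 8 genes with at least 20 SH reads and a detected gene on each side it was 4 (50%), against 83.0% of the other genes with at least 20 SH reads. This low share says little. Thhalv10014264m.g and Thhalv10021355m.g lacked YK reads at a neighbour that is itself in the set, by the choice of genes. Thhalv10002969m.g and Thhalv10017986m.g lacked them at neighbours with 1 SH read. Counting only neighbours with at least 6 SH reads, YK reads at both were found for 89.7% of 97 SH-only genes, against 97.9% of the others. A neighbour without YK reads then meets the read rule itself, and is an SH-only or a left-out gene. These shares therefore give only how often such genes stood next to the genes counted, and say nothing about YK reads at other neighbours. Distances were also wider. The nearest detected annotated gene lay a median of 1335 bp away for the SH-only genes, against 574 bp for the others. It lay over 10 kb away for 16% against 6.56%. Wider distances were not particular to the SH-only genes: for the YK-only genes the median was 920 bp, with 11.7% over 10 kb. At 20 SH reads or more, the nearest gene lay over 10 kb away for 3 of the 9 SH-only genes, against 6.74% of the others.

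The genes next to those with at least 20 SH reads ranged in level from 1 to 37 SH reads, leaving aside the 3 places where SH-only genes stand in a row. Thhalv10014457m.g lay between well-covered genes, Thhalv10014249m.g with 21 SH reads and 14 YK reads and Thhalv10015064m.g with 37 SH reads and 16 YK reads. Next to Thhalv10009345m.g, Thhalv10008638m.g had 22 SH reads and 10 YK reads, and Thhalv10007274m.g, 982 bp away, had 8 SH reads and 1 YK read. Thhalv10002119m.g stood between Thhalv10001955m.g (6 SH reads, 5 YK reads) and Thhalv10002111m.g (3 SH reads, 2 YK reads). All these neighbours had reads in both libraries, as had those of Thhalv10022908m.g: Thhalv10022646m.g had 3 SH reads and 5 YK reads, and Thhalv10023150m.g had 1 SH read and 6 YK reads. Around Thhalv10002969m.g, Thhalv10002375m.g had 5 SH reads and 9 YK reads and Thhalv10002756m.g had 1 SH read and no YK read. Around Thhalv10017986m.g, Thhalv10016267m.g and Thhalv10016169m.g had 1 SH read each and no YK read, too few to tell the libraries apart there.

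**Figure D4:**
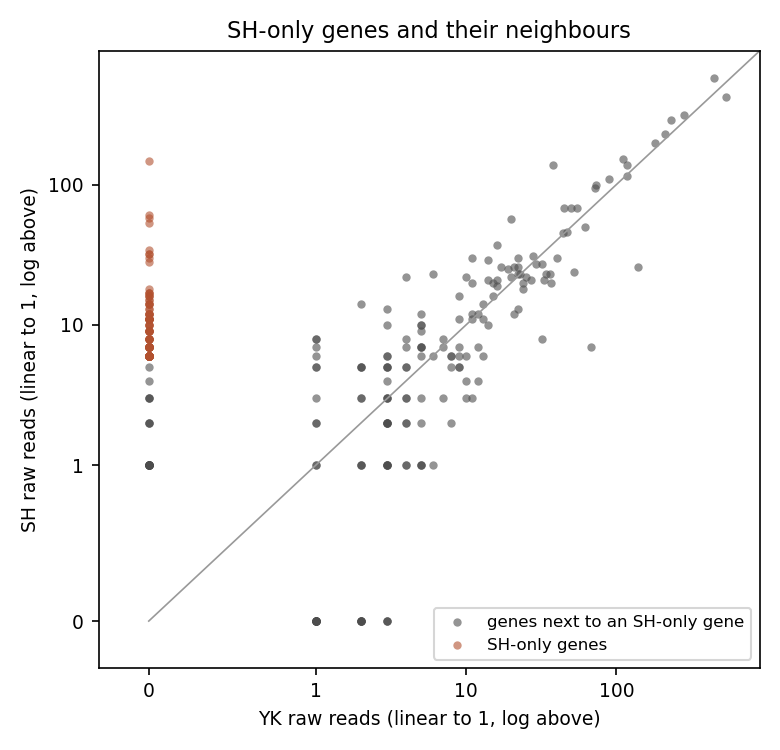
Raw SH reads (y axis) and raw YK reads (x axis) of the 100 SH-only genes and of the 189 detected annotated genes next to them, on axes that are linear to 1 and logarithmic above, with the line of equal reads. The SH-only genes lie on the left edge by choice, while the neighbours, with sums of 4638 reads in SH and 4349 in YK, scatter about the line.

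In 3 places SH-only genes followed each other among the detected genes. On scaffold 2, Thhalv10014149m.g, Thhalv10015673m.g and Thhalv10014264m.g stood in a row with 8, 10 and 53 SH reads and no YK read, within a stretch from 11093096 to 11121205. The gene before them, Thhalv10012835m.g, had 25 SH reads and 19 YK reads, and the gene after them, Thhalv10014333m.g, had none in SH and 1 in YK. On scaffold 13, Thhalv10021355m.g and the protease gene Thhalv10021398m.g lay 3270 bp apart with 32 and 14 SH reads. Their neighbours Thhalv10020536m.g (7 reads in SH and 9 in YK) and Thhalv10020535m.g (8 in SH and 4 in YK) were seen in both libraries. On scaffold 11, the L11 family gene Thhalv10022936m.g and Thhalv10022943m.g were the last detected genes of the scaffold, 218568 bp apart. The gene before them, Thhalv10022809m.g, had 423 SH reads and 540 YK reads.

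**Figure D5:**
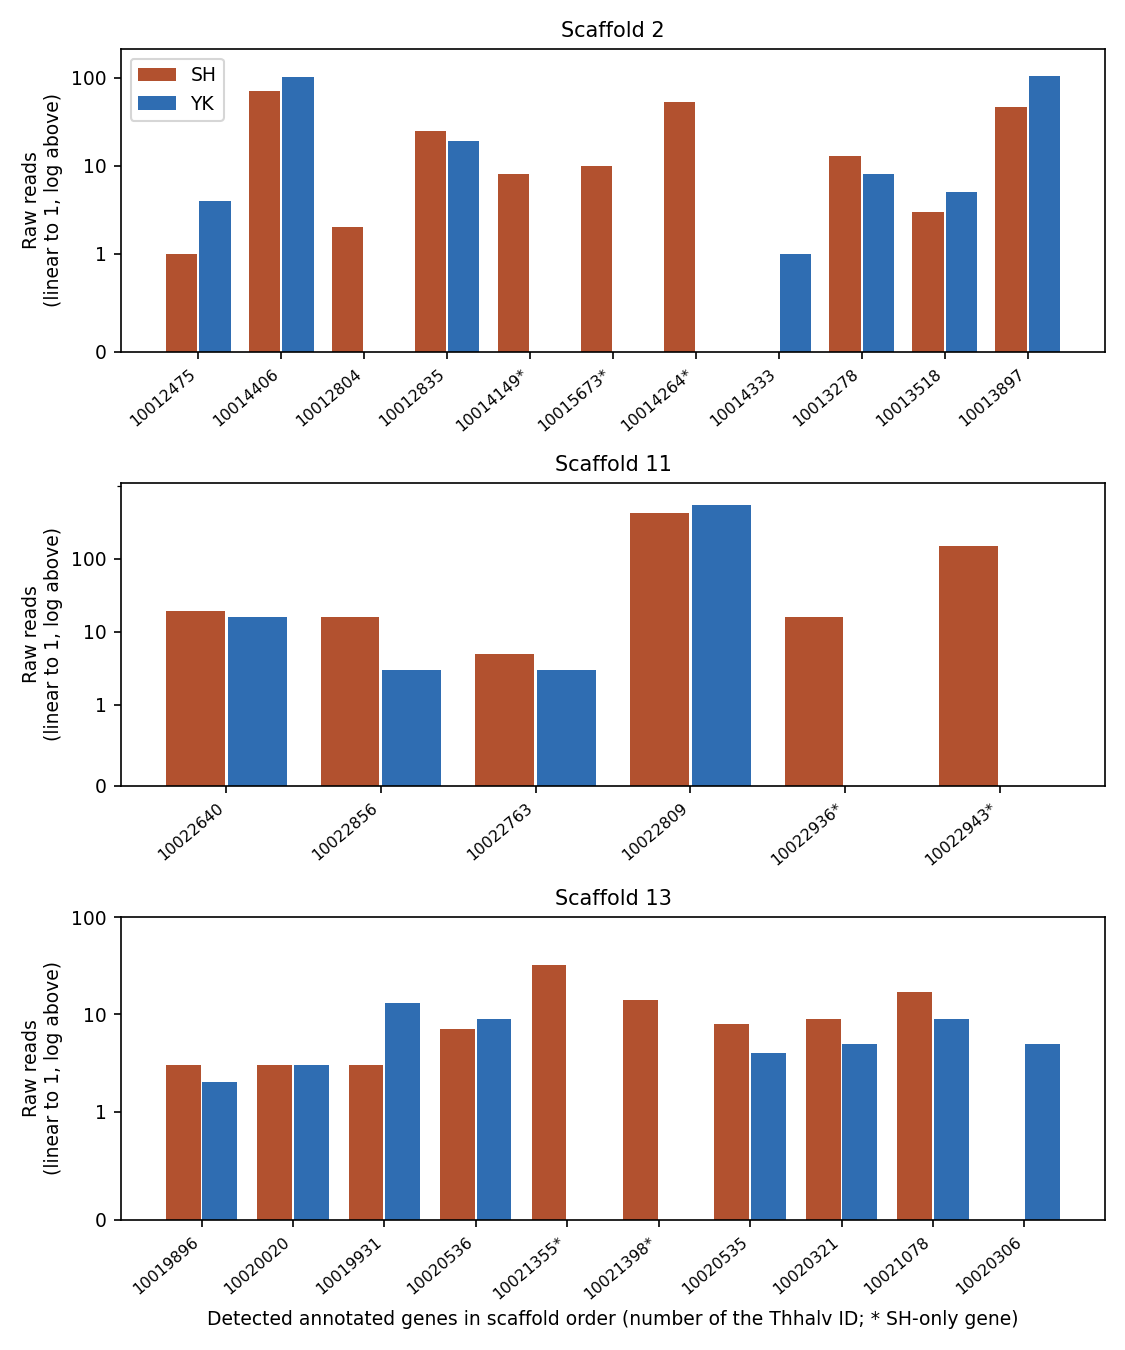
Raw reads in SH (left bars) and YK (right bars) of detected annotated genes in scaffold order around the 3 places where SH-only genes (starred) follow each other, on an axis that is linear to 1 and logarithmic above; 1 library each, no error bars. The genes on scaffold 2 with 8, 10 and 53 SH reads and those on scaffolds 11 and 13 have no YK bar, while most genes around them have bars in both colours.

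The decarboxylase gene Thhalv10023484m.g lies just outside the left-out stretch of scaffold 8. The gene before it, Thhalv10023527m.g, had 4 SH reads without any YK read, below the minimum, and the gene after it, Thhalv10023455m.g, had 5 in SH and 1 in YK. Before Thhalv10023527m.g, on the side away from the left-out stretch, Thhalv10024108m.g (2 SH reads, 3 YK reads) and Thhalv10023471m.g (12 SH reads, 11 YK reads) were seen in both libraries.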

How the data were processed

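Pyrosequencing reads of 1 SH and 1 YK library were trimmed by the authors (quality 12, length 50 bp) and aligned to the SH genome of Phytozome. The aligner is GMAP in the methods but GSNAP in the notes deposited by the submitters. Uniquely mapped reads were counted by the authors with HTSeq 0.5.4p5 in union mode. Loci assembled by Cufflinks were added with bedtools 2.17.0. The deposited counts are raw reads per gene, of 17731 annotated genes and 157 assembled loci, and 1 blank row was dropped. The deposited fold ratios and p-values, made by the authors with DESeq 1.14.0, were not used.

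The 100 genes, the name lists and the rule for naming genes (at least 20 SH reads or an A. thaliana hit, genes with the same hit or of the same listed family, neighbours of genes with at least 20 SH reads, SH-only genes in a row and overlapping loci) were chosen with earlier results of these data known. Genes named outside that rule (those without a hit, Thhalv10028371m.g and the scaffold 8 neighbours) were chosen after their values were seen. RPM use the reads assigned to genes. Size factors by median of ratios had a ratio of 1 between the libraries, so reads were compared as deposited; total reads, TMM (edgeR 4.0.16) and totals without the 5 most abundant genes were alternatives. Intervals are 95% exact intervals (scipy 1.17.1), and PCR reads without molecular identifiers are not independent molecules. With 1 library per accession no test was made. The code that applies the rule was run on simulated counts with known zeros, which tests the code and not the genes. Hits came from the study's annotation, of which 1998 of 17888 rows were at hand, and from its list of differing genes. None of the 100 IDs matched the RefSeq gene table of assembly Eutsalg1_0, and with no genome of the files' build no gene sequence was read.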

Additional observations from a re-analysis of the deposited data

How the results depend on the processing

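The size of the set follows its threshold. A minimum of 4 reads gave 236 SH-only and 206 YK-only genes, a minimum of 10 gave 42 SH-only and 30 YK-only genes, and allowing 1 read in the other library gave 213 SH-only and 242 YK-only genes. The share of annotated genes with no YK read was 2.25% at a minimum of 4 SH reads, 0.746% at 10 and 1.46% with the assembled loci counted in. YK reads at both neighbours were found for 89.7% of SH-only genes when only neighbours with at least 6 SH reads were counted. In that setting a neighbour without YK reads meets the read rule itself. The fold bounds of the 35 named genes stayed within counting error under the 3 other scalings. This had to be so, as the SH to YK ratio of these scalings ran only from 0.983 to 1.12. The bounds themselves did move. By total reads the bound of Thhalv10022943m.g fell from 49.3 to 44.2, and that of named genes with 6 SH reads from 2 to 1.79. By TMM the bound of Thhalv10022943m.g rose to 50.2. The median locus length of 1840 bp was 1814.5 bp at a minimum of 4 reads and also without overlapping loci, and 1590 bp at a minimum of 10. No paired analysis was possible because each accession has 1 library, and for the same reason no library could be left out. Depth limits what the set can show: 58 of the 100 genes had fewer than 10 SH reads.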
